A study of Homo sapiens with 2 samples.

Results

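The peaks near chromosome ends are the ATAC-seq peaks whose summit, the base with the most tags, lay within 2 Mb of an end of chromosomes 1 to 12, 14 to 16, 20 or 21 in hg19. The short-arm ends of 14, 15 and 21 were left out, which left 31 ends, 14 on short arms and 17 on long arms. They held 5582 of 114506 peaks in the DMSO library and 6834 of 161684 peaks in the MAK683 library. ATAC-seq uses the Tn5 transposase, which cuts open chromatin, so that reads pile up where DNA is accessible. Both libraries came from G401, an established SMARCB1-deficient line of a rhabdoid tumor that arose in the kidney. The cells were treated for 3 days with the solvent DMSO or with MAK683 at 3 µM. MAK683 binds EED, a subunit of Polycomb repressive complex 2 (PRC2). They are compared to see what blocking PRC2 does to accessibility. Each group was 1 library, so no p-value was computed, and all intervals below are 95% intervals that cover counting error only.

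PRC2 methylates histone H3 at lysine 27, and this mark holds many developmental genes in a closed state. Human chromosome ends consist of telomere repeats, then of segments shared between several chromosomes, and then of single-copy sequence. Some ends are packed with broadly expressed genes, while others hold a few long genes that are used mainly in nerve or other specialised cells. SMARCB1 is a core subunit of the SWI/SNF chromatin remodeler, and its loss defines rhabdoid tumors. No peak was called within SMARCB1 in either library.

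The sequences below are 150 bases of the plus strand of GRCh37 around the summits of 5 peaks. They were chosen from the tallest, most raised, most lowered and MAK683-only regions described further on, and not all are the extreme of their set. Capitals mark letters searched for on both strands: TGANTCA, bound by AP-1 factors, CGGAAG, bound by ETS factors, and AGGGGGC, from the core of the CTCF site. The first is the tallest peak outside mitochondrial-like sequence, chr2:740542-740691, intergenic on 2p. The second, chr11:134280531-134280680, lies in an intron of B3GAT1 on 11q and was the tallest peak found in MAK683 alone. The third, chr11:133691701-133691850, intergenic on 11q, and the fourth, chr5:1204915-1205064, in an intron of the amino acid transporter gene SLC6A19 on 5p, were among the regions most raised in MAK683. The fourth window lies outside the DMSO peak of its region. The fifth, chr12:498725-498874, lies just upstream of KDM5A, in an intron of the neighbouring gene CCDC77, and was among the regions most lowered.
2p tallest peak: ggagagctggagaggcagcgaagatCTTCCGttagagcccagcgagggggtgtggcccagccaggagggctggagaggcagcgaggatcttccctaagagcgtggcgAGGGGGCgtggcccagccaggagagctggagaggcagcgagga
11q B3GAT1 peak: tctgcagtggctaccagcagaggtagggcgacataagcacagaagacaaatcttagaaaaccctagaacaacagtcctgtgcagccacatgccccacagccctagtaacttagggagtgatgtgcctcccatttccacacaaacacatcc
11q raised peak: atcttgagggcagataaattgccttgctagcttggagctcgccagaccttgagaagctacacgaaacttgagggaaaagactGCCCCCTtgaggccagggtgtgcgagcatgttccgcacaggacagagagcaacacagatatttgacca
5p SLC6A19 peak: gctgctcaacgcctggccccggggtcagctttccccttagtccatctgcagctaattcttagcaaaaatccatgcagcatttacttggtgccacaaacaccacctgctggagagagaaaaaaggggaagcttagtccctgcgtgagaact
12p KDM5A peak: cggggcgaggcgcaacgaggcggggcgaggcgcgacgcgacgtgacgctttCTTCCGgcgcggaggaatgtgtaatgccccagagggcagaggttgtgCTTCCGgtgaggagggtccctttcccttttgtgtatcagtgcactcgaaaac
A match describes the letters of the window and is not a measured binding site. The KDM5A window held 2 ETS matches and 17 CpG pairs. The B3GAT1 and SLC6A19 windows held none of these letters, with 1 and 3 CpG pairs.

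The chromosome ends were rich in peaks in both libraries, and their number rose less than in the rest of the same chromosomes. The 31 windows hold 2.09% of the assembled bases of the main chromosomes. They held 93.3 peaks per Mb in DMSO and 114 in MAK683, against 39.3 and 58.4 per Mb in the rest of the same chromosomes. The MAK683 to DMSO ratio of peak numbers was 1.22 (1.18 to 1.27) at the ends and 1.49 (1.47 to 1.50) in the rest of these chromosomes. Peaks covered 4218 kb of the ends in DMSO and 4396 kb in MAK683, a ratio of 1.04.

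The direction of the change in peak number at the ends depended on peak height. Height is given below as tags per 1000000 filtered tags of the library (RPM), where 1 tag is 0.0602 RPM in DMSO and 0.0547 RPM in MAK683. At 0.5 RPM or more the ends had 4269 DMSO peaks and 4003 MAK683 peaks, a ratio of 0.938 (0.898 to 0.979). At 1 RPM or more they had 1129 and 739, a ratio of 0.655 (0.596 to 0.719). At 1.5 RPM or more they had 548 and 228, a ratio of 0.416. In the rest of the same chromosomes the ratio fell too, to 1.07, 0.748 and 0.556 at the same height minimums. The ends thus stayed below the rest, and fewer tall peaks in MAK683 were not particular to them. The peaks that MAK683 added at chromosome ends were thus low: the 3246 of them with no DMSO counterpart had a median of 9 tags, as did the 2254 peaks found in DMSO alone.

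Gene content separated the ends more than the arm did. The windows were split by the number of coding genes that start in them, into 10 ends with 2 to 12 genes (few), 10 with 15 to 31 (middle) and 11 with 32 to 84 (many). At the ends with few coding genes, peak numbers went from 738 in DMSO to 1999 in MAK683, a ratio of 2.71 (2.49 to 2.95). The ends with a middle number went from 1894 to 2226, a ratio of 1.18 (1.10 to 1.25). The ends with many coding genes went from 2950 to 2609, a ratio of 0.884 (0.839 to 0.933). All 10 ends with few coding genes had more peaks in MAK683, against 5 of 10 in the middle group and 2 of 11 ends with many.

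The order of the 3 groups was kept at each height minimum, while the side of 1 was not. At 0.5 RPM or more the ratios were 1.97, 0.886 and 0.714 from few to many coding genes. At 1 RPM or more they were 0.942, 0.693 and 0.563, so that all 3 groups had fewer of the tall peaks in MAK683. The rest of the same chromosomes also had fewer, with a ratio of 0.748.

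**Figure D1:**
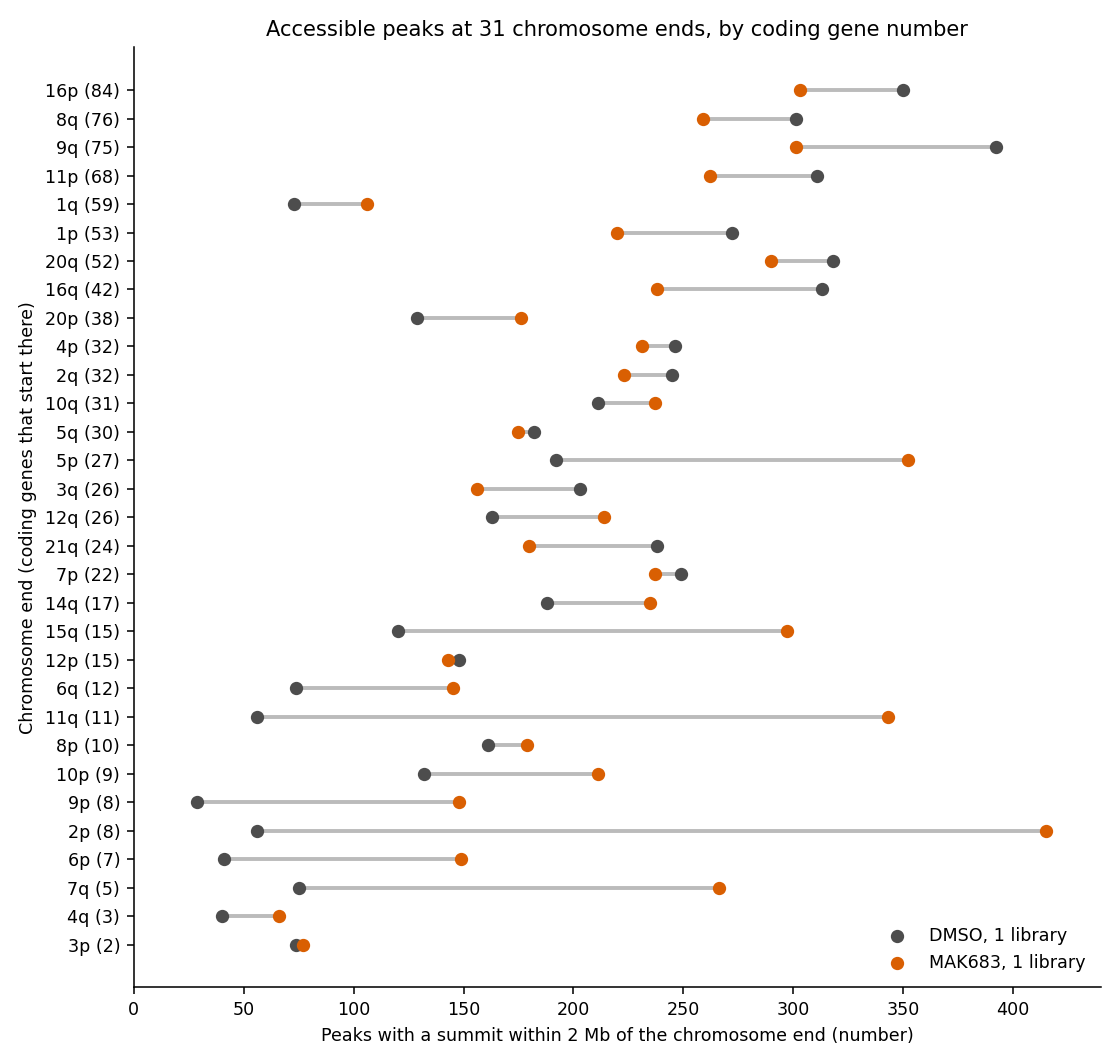
Number of peaks within 2 Mb of each of 31 chromosome ends (x axis) in the DMSO library (grey) and the MAK683 library (orange), with ends ordered by the number of coding genes that start there (in brackets). The 5 longest rightward shifts, at 2p, 11q, 7q, 15q and 5p, are all at ends with at most 27 coding genes, while 9 of the 11 ends with 32 or more moved left.

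The single ends ranged widely. On 2p, 56 DMSO peaks became 415 MAK683 peaks, a ratio of 7.41 (5.60 to 9.98), and this end went from among the emptiest in DMSO to the fullest of the 31 in MAK683. On 11q, 56 peaks became 343, a ratio of 6.12 (4.61 to 8.28). On 9p, 29 peaks became 148, a ratio of 5.10 (3.41 to 7.88), from the lowest DMSO number of all ends. These 3 ends have 8, 11 and 8 coding genes.

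The ends 7q, with 75 and 266 peaks, and 6p, with 41 and 149, followed with ratios of 3.55 and 3.63. The largest falls were on 21q, from 238 to 180 peaks with a ratio of 0.756 (0.620 to 0.922), on 16q, from 313 to 238 with a ratio of 0.760 (0.640 to 0.903), and on 9q, from 392 to 301 with a ratio of 0.768 (0.659 to 0.895). The 9q end was the fullest in DMSO. Across the 31 ends, 14 had an interval wholly above 1 and 6 an interval wholly below 1, and the others could not be placed on either side from their counts.

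A few ends stood apart from the gene-content order. The 3p end has 2 coding genes, the fewest of all, but its peak number hardly moved, from 74 to 77. The 4q end, with 3 coding genes, had the lowest MAK683 number, 66, after 40 in DMSO. On 1q, 59 coding genes start in the window, yet it has 40.2% GC and only 73 DMSO peaks, and it rose to 106, a ratio of 1.45 (1.07 to 1.98). On 20p, with 38 coding genes, the number rose from 129 to 176.

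As a description over the 31 ends, the log2 ratio of peak numbers fell with coding gene number (Pearson r -0.56, Spearman rho -0.68). Coding gene number tracked the DMSO peak number closely (r 0.79, rho 0.80) and the MAK683 number loosely (r 0.27, rho 0.34). The log2 ratio also fell with the GC content of the window (r -0.48), which rose with gene number (r 0.66), so that these window measures moved together. GC content tracked the DMSO peak number (r 0.87, rho 0.89) and, more closely than gene number did, the MAK683 number (r 0.60, rho 0.67). The ratio contains the DMSO peak number, and all points share the same libraries.

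Interior windows of 2 Mb on the same chromosomes showed the same ordering by gene content. Of 1129 such windows, those with few coding genes went from 32811 to 65403 peaks, a ratio of 1.99 (1.97 to 2.02). Those with a middle number had a ratio of 1.29 (1.27 to 1.30), and those with many had 0.957 (0.937 to 0.978). The chromosome ends therefore spread further than interior windows at both extremes in the pooled ratio, but the median over ends with few coding genes, 2.75, lay within the quartiles of the interior windows of that class, 1.42 to 4.81. Leaving out 2p and 11q, a choice made after seeing the data, brought the pooled ratio of the ends with few genes to 1.98.

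The ratio on 2p was matched or passed by 77 of the 1090 interior windows with peaks in both libraries, but its 415 MAK683 peaks were matched or passed by only 1. For 11q the numbers were 122 and 5. Many interior windows thus had as high a ratio, and few had as many MAK683 peaks.

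**Figure D2:**
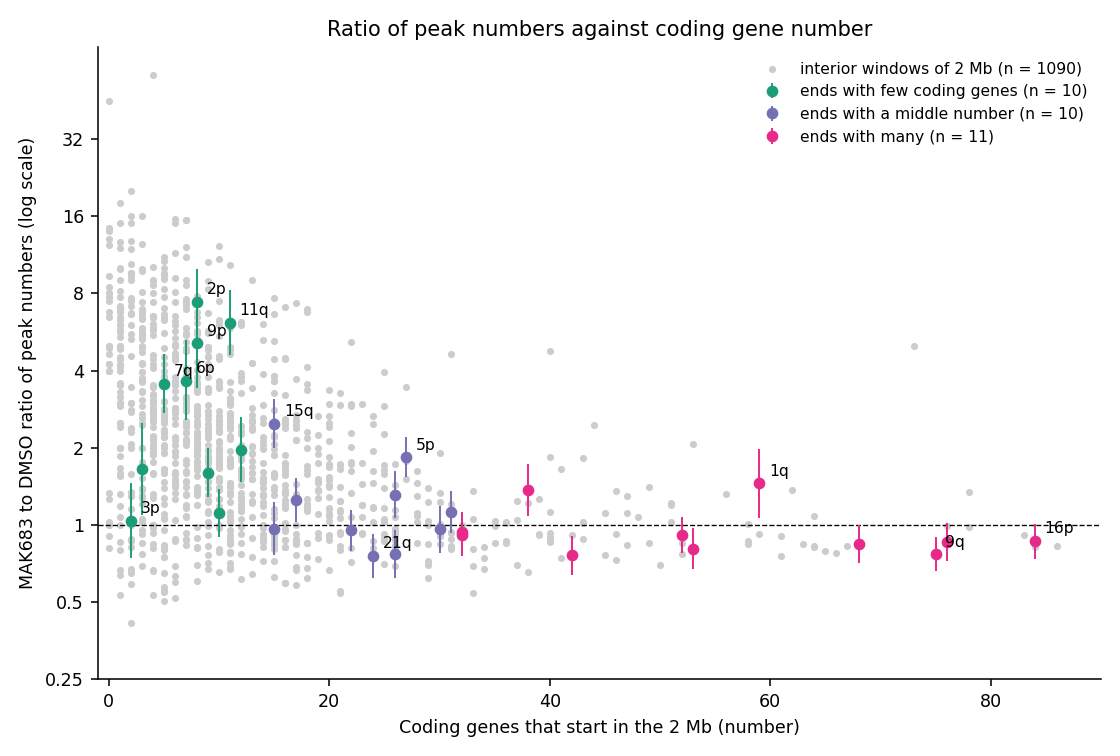
MAK683 to DMSO ratio of peak numbers (y axis, log scale) against the number of coding genes that start in the 2 Mb (x axis), for the 31 chromosome ends (colored points, bars are 95% counting intervals) and 1090 interior windows of the same chromosomes (grey). The ends with few coding genes lie at or above 1 and most ends with many lie below it, inside the cloud of interior windows.

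Short and long arms differed less than ends with few and many genes, and the order of the arms depended on the summary. Short-arm ends went from 2390 to 3103 peaks, a ratio of 1.30 (1.23 to 1.37), and long-arm ends from 3192 to 3731, a ratio of 1.17 (1.11 to 1.23). The median ratio over single ends was in the opposite order, 1.08 on short arms and 1.12 on long arms. The short-arm windows also have fewer coding genes, a median of 18.5 against 26. Without 2p and 11q the ratios were 1.15 and 1.08. Of the 14 chromosomes with both ends, the short arm had the higher ratio on 9, and on 11 of them one end rose while the other fell. On chromosome 9 the ratio was 5.10 at the short-arm end and 0.768 at the long-arm end, and on chromosome 11 it was 0.842 and 6.12.

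Within the 2 Mb, peak density was lowest in the outermost 0.5 Mb, where DMSO had 72.5 peaks per Mb and MAK683 had 101, a ratio of 1.40 (1.29 to 1.52). From 0.5 to 1 Mb it was 108 and 119 per Mb, a ratio of 1.11 (1.04 to 1.19). Just inside the 2 Mb limit, from 1.5 to 2 Mb, there were 98.8 and 126 peaks per Mb, and just outside it, from 2 to 2.5 Mb, 71.7 and 89.1. From 5 to 10 Mb the density had dropped to 45.8 and 64.3 per Mb, with a ratio of 1.40. The ratio therefore did not change in a single direction with distance. The share of DMSO peaks within 3 kb of a transcription start site (TSS) fell, from 49.4% in the outermost 0.5 Mb to 37.9% at 1.5 to 2 Mb and 28.7% at 5 to 10 Mb.

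**Figure D3:**
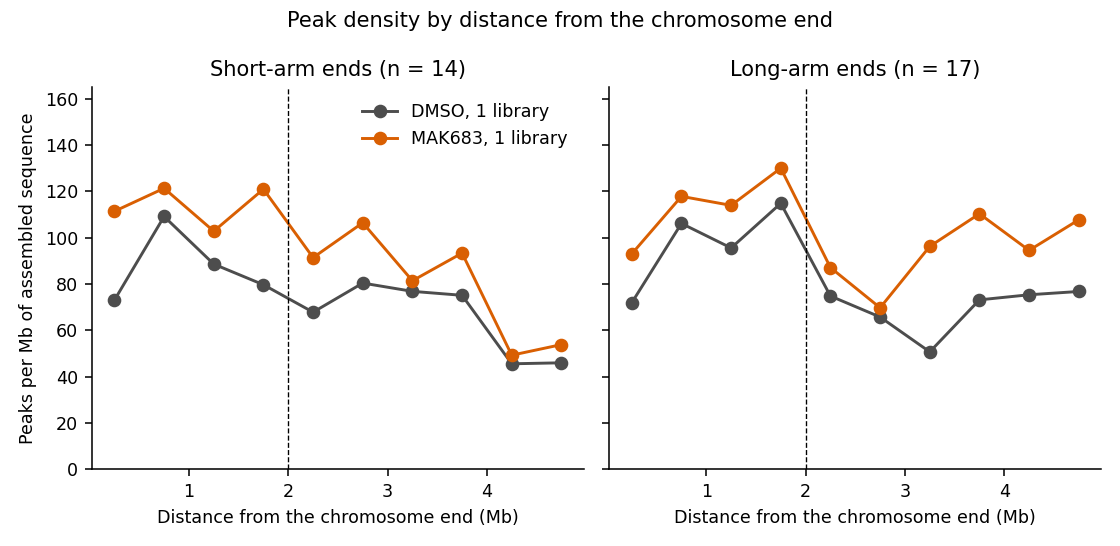
Peaks per Mb of assembled sequence (y axis) in bins of 0.5 Mb from the chromosome end (x axis) for 14 short-arm ends and 17 long-arm ends, with DMSO in grey, MAK683 in orange and the 2 Mb limit dashed. MAK683 lies above DMSO in each bin on both arms, and the outermost bin of each arm is lower than the next, with 73.1 and 109 DMSO peaks per Mb on short arms.

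The peaks added by MAK683 lay mostly away from start sites, and more of them in no coding gene than in long genes. TSS-proximal peaks at the ends went from 2365 to 2551, a ratio of 1.08 (1.02 to 1.14), and distal ones from 3217 to 4283, a ratio of 1.33 (1.27 to 1.39). Where coding genes were few the ratios were 1.87 and 3.07. On 2p, 37 distal peaks became 354, and on 11q, 39 became 290. Peaks in no coding gene went from 2226 to 3302, a ratio of 1.48 (1.41 to 1.57), and those within genes of 100 kb or more from 794 to 1263, a ratio of 1.59 (1.45 to 1.74). Peaks within shorter genes had ratios of 0.800 to 0.945. The rest of the same chromosomes had the same pattern, with ratios of 1.22 for proximal and 1.61 for distal peaks. There the ratio was 1.87 in no coding gene, 1.57 within genes of 100 kb or more and 0.923 to 1.05 within shorter genes.

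Inside coding genes, the ratio did not move in a single direction with gene length, and the longest genes differed between ends. Within genes of 100 kb or more, peaks at the ends with few coding genes went from 271 to 775, a ratio of 2.86 (2.49 to 3.30). At the same ends the ratio was 1.53 within genes under 20 kb, 1.31 within genes of 20 to 50 kb and 0.922 within genes of 50 to 100 kb, and the intervals of these 3 include 1. At the ends with many coding genes the ratio was 0.877, 0.896 and 0.676 in the same classes. Peaks within genes of 100 kb or more fell there from 201 to 112, a ratio of 0.557 (0.438 to 0.706). Peaks in no coding gene went from 312 to 1044 at the ends with few genes and from 1078 to 1104 at the ends with many.

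Some long genes gained many peaks, with counts here limited to summits within the 2 Mb. The genes in this and the next 2 paragraphs were picked after their counts were seen. PTPRN2 on 7q, a receptor-type phosphatase of neuroendocrine vesicles, held 14 DMSO and 137 MAK683 peaks, which is 51.5% of the MAK683 peaks of that end. MYT1L on 2p, a zinc finger factor of neurons, held 5 and 103, and its neighbours SNTG2, a brain syntrophin, 5 and 38, and PXDN, a peroxidase that cross-links collagen IV, 11 and 34. ADARB2 on 10p, a brain relative of the RNA-editing deaminases, held 11 and 96. OPCML on 11q, a neuronal adhesion protein, held 1 and 44.

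Genes of other tissues gained peaks too. PCSK6, a protease that activates secreted growth factors, held 10 and 61 peaks on 15q, ADAMTS17, a secreted metalloprotease, 2 and 27, and ALDH1A3, which makes retinoic acid, 3 and 19. On 9p, DOCK8, an activator of small GTPases in immune cells, held 3 and 41 peaks and KANK1, a regulator of the actin cytoskeleton, 3 and 26. VIPR2 on 7q, a receptor for vasoactive intestinal peptide, held 3 and 38. IRF4 on 6p, a factor of lymphocytes, held 1 and 13, and NLRP3 on 1q, the inflammasome sensor, held 1 and 16.

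Other long genes lost peaks over the same windows, some of them next to the genes above. ANKRD11 on 16q, a chromatin regulator, went from 51 to 22 peaks, and ADARB1 on 21q, an RNA-editing deaminase, from 35 to 15. GNB1 on 1p, a G protein beta subunit, went from 22 to 3, NSD2 on 4p, a histone H3 lysine 36 methyltransferase, from 22 to 6, and WNK1 on 12p, a kinase of ion transport, from 14 to 3. CHSY1, a chondroitin synthase near PCSK6 on 15q, went from 24 to 9, and DNAJB6, a chaperone on 7q, from 19 to 10. Gain and loss thus stood side by side on the same end.

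**Figure D4:**
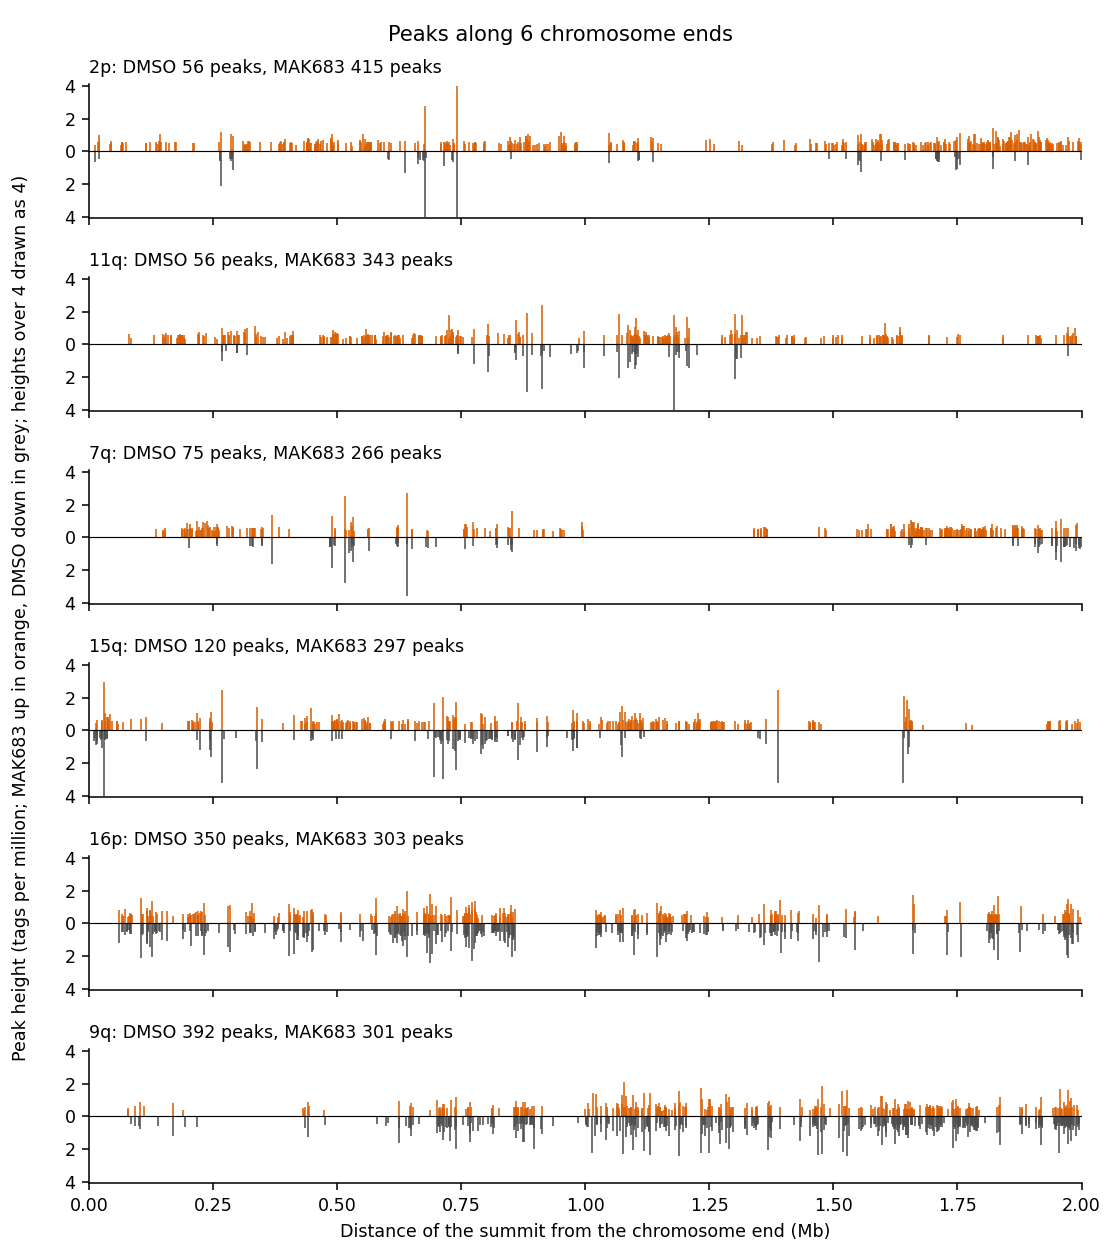
Height (y axis, RPM, heights over 4 drawn as 4) of each peak against its distance from the chromosome end (x axis, Mb) for 6 ends, with MAK683 above the line in orange and DMSO below it in grey. On 2p, 11q, 7q and 15q the added MAK683 peaks form low, dense runs. On 16p and 9q the DMSO peaks are taller, and 75.9% and 80.7% of the MAK683 peaks overlap a DMSO peak. Of the DMSO peaks there, 59.1% and 56.9% overlap a MAK683 peak.

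MAK683 peaks at the gene-rich ends mostly overlapped a DMSO peak, while those at the gene-poor ends mostly did not. Where coding genes were many, 72.5% of MAK683 peaks (70.7 to 74.2%) overlapped a DMSO peak. At the ends with few the share was 24.2% (22.3 to 26.1%), and it fell to 7.95% on 2p and 11.7% on 11q. With 738 DMSO peaks against 1999 MAK683 peaks at the ends with few genes, this share is limited by the peak numbers themselves. Conversely, 66.9% of the DMSO peaks at the ends with few genes overlapped a MAK683 peak, against 56.9% at the ends with many. For all ends together, the shared fraction was 59.6% in DMSO and 52.5% in MAK683, against 56.0% and 40.8% in the rest of the same chromosomes.

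The heights of the 2942 shared regions at chromosome ends were lower in MAK683, with a median log2 ratio of -0.31 (-0.32 to -0.29), close to the -0.32 of the rest of the same chromosomes. MAK683 was lower at 75.7% of them. The median was -0.14 (-0.24 to -0.14) at the ends with few coding genes, -0.29 at the ends with a middle number and -0.36 (-0.39 to -0.33) at the ends with many. Of the shared regions, 12 (0.408%) were at least 2-fold higher in MAK683 against 0.873% of all shared regions, and 124 (4.21%) were at least 2-fold lower against 5.54%. Both shares were below those of all shared regions. By end, the median was below 0 at 28 ends and above 0 at 3.

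The tallest regions at chromosome ends included copies that reads cannot place with certainty. The 2 tallest, on 1p, held 280 and 200 tags in DMSO (16.9 and 12.1 RPM) and 278 and 203 in MAK683 (15.2 and 11.1 RPM), and lie over MTND2P28 and MTATP6P1, nuclear pseudogene copies of mitochondrial genes. Reads from the mitochondrial genome and from these copies could not be separated. The next was the 2p region shown above, with 106 tags in DMSO (6.39 RPM, 5.23 to 7.72) and 87 in MAK683 (4.76 RPM, 3.82 to 5.88). The log2 ratios of the pair on 1p were -0.15 and -0.12, and the 2p region was lower, with -0.42 (-0.83 to -0.01).

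The other 2 of the 5 tallest regions lay close to the ends of 5p and 12p. On 5p, an intergenic region 11.4 kb from the end held 76 and 86 tags (4.58 and 4.71 RPM). On 12p, the WASH8P pseudogene of the WASH actin-regulating family held 85 and 71 tags (5.12 and 3.89 RPM). The outermost peaks on 4p and 12q, 10.1 and 10.3 kb from the ends, held 38 and 35 tags on 4p and 44 and 55 tags on 12q, a log2 ratio of 0.18 (-0.39 to 0.76) for the latter. No change was detectable at this depth at these regions of 5p, 4p and 12q. The 150 bases around their summits were almost wholly telomere repeats, which chromosome ends share. Their reads can therefore not be assigned to a single end. The outermost peaks of 1p, 9p and 15q held 7, 9 and 11 tags in DMSO and none was called in MAK683, and that of 21q held 17 and 14.

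Of the shared regions whose height averaged 1 RPM or more over both libraries, the most raised was on 12p, 65.9 kb from the end beside FAM138D, a noncoding gene of a family repeated near telomeres, with 7 and 31 tags (0.422 and 1.70 RPM) and a log2 ratio of 2.01 (0.83 to 3.19). Regions on 9p at 74.3 and 110 kb from the end held 9 and 28 and 11 and 29 tags. The SLC6A19 region of 5p held 8 and 28 tags (0.482 and 1.53 RPM), a log2 ratio of 1.67 (0.54 to 2.80). In the SLC6A19 region and the 9p region at 74.3 kb, the MAK683 summit lay outside the DMSO peak. Their tags thus compare different sites of a merged region, not a single site that rose. The raised 11q region shown above held 14 and 33 tags (0.843 and 1.81 RPM), a log2 ratio of 1.10 (0.20 to 2.00).

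The most lowered regions were an intron of an unnamed pseudogene on 20p with 36 and 13 tags, the KDM5A region with 47 and 17 tags (2.83 and 0.931 RPM, log2 ratio -1.61, -2.41 to -0.80), the start of EXD3 on 9q with 33 and 12 tags, and intronic regions of STK32C on 10q with 31 and 12 tags and DIP2C on 10p with 32 and 13 tags. The tallest peaks found in DMSO alone held 19 or 20 tags, near UAP1L1 on 9q, in the collagen gene COL18A1 on 21q and in the mechanosensitive channel gene PIEZO1 on 16q. The tallest found in MAK683 alone held 33 tags in B3GAT1 on 11q (1.81 RPM) and 25 tags each in ADARB2 on 10p and beside the immunoglobulin segment IGHV3-20 on 14q. Of these 8 raised or MAK683-only regions 5 lay on ends with few coding genes, against 1 of the 8 lowered or DMSO-only ones. Over all peaks at chromosome ends, the ends with few coding genes held 1516 of the 3246 found in MAK683 alone and 244 of the 2254 found in DMSO alone.

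Promoters of coding genes at the ends were lower in MAK683 in most cases. Promoter height is the tallest peak within 3 kb of a gene's TSS in each library, and a library with no peak was set to 0.361 RPM, the lowest height called in DMSO. Of 919 coding genes, 794 had a promoter peak in at least 1 library, and in 123 of them (15.5%) the MAK683 peak was higher, against 21.5% of all coding promoters. The median log2 ratio was -0.46 (-0.49 to -0.42), with -0.41 in the rest of the same chromosomes. In 102 of the 734 genes with a peak in both libraries the tallest peaks did not overlap, and in the other 632 the median was -0.49 and 91.1% were lower, against 87.7% over all coding promoters of that kind. Single genes named below with tags in both libraries are of that kind unless stated. At least 2-fold higher were 10 promoters (1.26%) against 3.37% of all coding promoters, and at least 2-fold lower were 56 (7.05%) against 5.75%. Among promoters at the ends with few coding genes, 5 of 69 promoters (7.25%) were at least 2-fold higher and 1 was at least 2-fold lower, while at the ends with many 3 of 516 were higher and 44 lower. Of the 632 genes with overlapping tallest peaks only 1, IRX4 on 5p, was at least 2-fold higher, and 43 were at least 2-fold lower. The 5 raised promoters at the ends with few coding genes thus rest on the lowest called height or on peaks that did not overlap. At those ends 11 promoters had a MAK683 peak alone and 0 a DMSO peak alone.

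The listed developmental regulators stood near no change as a group. Of 25 such genes at the ends, 20 had a promoter peak, 9 were higher and 11 lower, and the median log2 ratio was -0.0047, against -0.42 over all coding promoters. Of all coding promoters 21.5% were higher. In the 11 listed genes whose tallest peaks in both libraries overlapped, 5 were higher and 6 lower, with a median of -0.01. IRX4 on 5p, a homeobox factor of heart ventricles, had 7 DMSO tags and 26 MAK683 tags (0.422 and 1.42 RPM), a log2 ratio of 1.76 (0.55 to 2.96). FOXQ1 on 6p, a forkhead factor, had no peak in DMSO and 13 tags in MAK683. The Wnt pathway scaffold AXIN1 on 16p had 33 and 22 tags, and SOX12 on 20p had 61 and 36, a log2 ratio of -0.90 (-1.49 to -0.30). HES4 on 1p, of the Hes family, had 32 and 35 tags. For FOXD4 on 9p, which has near-identical copies, the tallest peaks held 27 and 35 tags. They lay past the 3' end of the gene, with summits more than 3 kb from the TSS.

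The 16 listed neuronal and channel genes had the highest median of the lists, 0.13, with 9 of 14 measured promoters higher, against 21.5% of all coding promoters, and 3 of them at least 2-fold, against 3.37%. Those 3, in B3GAT1, SNTG2 and ADARB2, had no DMSO peak, so their ratios rest on the lowest called height. In the 6 genes whose tallest peaks in both libraries overlapped, 3 were higher and 3 lower, with a median of -0.03. B3GAT1 on 11q, which makes the HNK-1 carbohydrate of nerve and natural killer cells, had no DMSO peak and 33 tags (1.81 RPM) in MAK683, a log2 ratio of 2.32 against the lowest called height. SNTG2 on 2p had none and 22 tags (1.20 RPM). The nicotinic receptor gene CHRNA4 with 18 and 21 tags and the stathmin gene STMN3 with 20 and 21 tags, both on 20q, hardly moved, and the opioid-related receptor gene OPRL1 on 20q had 25 and 16. The calcium channel gene CACNA1B on 9q had 21 and 16.

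The lists of broadly expressed genes were lower nearly throughout, as most promoters at the ends were: 84.5% of those with a peak (671 of 794) were lower, and 78.4% of all coding promoters. All 15 listed housekeeping genes at the ends were lower, with a median of -0.60, among them the chaperone gene CANX on 5q with 55 and 32 tags (log2 ratio -0.92, -1.55 to -0.29) and the shared promoter of TBP and PSMB1 on 6q with 51 and 42. Of 12 chromatin regulators 11 were lower, with a median of -0.53. KDM5A, a histone H3 lysine 4 demethylase, had the lowest value, the H3 lysine 9 methyltransferase gene EHMT1 on 9q had 17 and 18 tags, and MTA1 on 14q, a subunit of the NuRD remodeler, had 12 and 15.

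Of 11 interferon and immune genes with a promoter peak 10 were lower, with a median of -0.62, again near the share of all promoters at the ends. Only 5 of the 11 had tallest peaks that overlapped between the libraries, and these 5 were lower. The antiviral membrane protein genes of 11p held 42 and 31 tags at IFITM1 and 36 and 29 at IFITM3, which are close paralogs. For IFITM2 the tallest DMSO peak within 3 kb was that of IFITM1, so no ratio is given. IRF4 was the exception, with no DMSO peak and 13 tags in MAK683. The 5 alpha-globin genes of 16p had a median of -0.14. The embryonic HBZ was lower, with 23 and 12 tags and a log2 ratio of -1.08 (-2.08 to -0.07). HBQ1 had 32 and 23 tags and a log2 ratio of -0.61 (-1.39 to 0.16). The near-identical HBA1 and HBA2 shared a peak of 13 and 14 tags, with no detectable change at this depth. After depth scaling the 13 DMSO tags are 0.783 RPM and the 14 MAK683 tags 0.766 RPM.

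Matrix and adhesion genes were mixed, 6 higher and 10 lower of 16 with a median of -0.10. Of all coding promoters 21.5% were higher. In the 9 of these genes whose tallest peaks in both libraries overlapped, 4 were higher and 5 lower, with a median of -0.07. Listed here were the collagen VI gene COL6A1 on 21q with 22 and 16 tags and ADAMTS17 on 15q with 24 and 34. Growth factor and receptor genes were near the same level, with 22 tags in both libraries at the GTPase gene HRAS on 11p, 27 and 36 at FGFRL1 and 34 and 25 at FGFR3, both fibroblast growth factor receptor genes on 4p. Of the telomere maintenance genes, RTEL1 on 20q, a helicase, had 37 and 24 tags, a log2 ratio of -0.76 (-1.50 to -0.02), and TERT on 5p, the telomerase catalytic subunit, had 9 and 10 in peaks that did not overlap. The peaks at TERT were thus at the low end of called heights in both libraries.

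The 67 genes of families repeated near telomeres, such as OR4F, WASH, DDX11L and FAM138, had a promoter peak in 45 cases, 26 higher and 19 lower, with a median of 0.05. Of all coding promoters 21.5% were higher. In the 26 genes whose tallest peaks in both libraries overlapped, 13 were higher and 13 lower, with a median of -0.06. FAM138C on 9p had no DMSO peak and 18 MAK683 tags, and FRG1 on 4q had 54 and 37. These genes share near-identical copies on several ends, so their reads may be split or misplaced, and their values are uncertain.

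**Figure D5:**
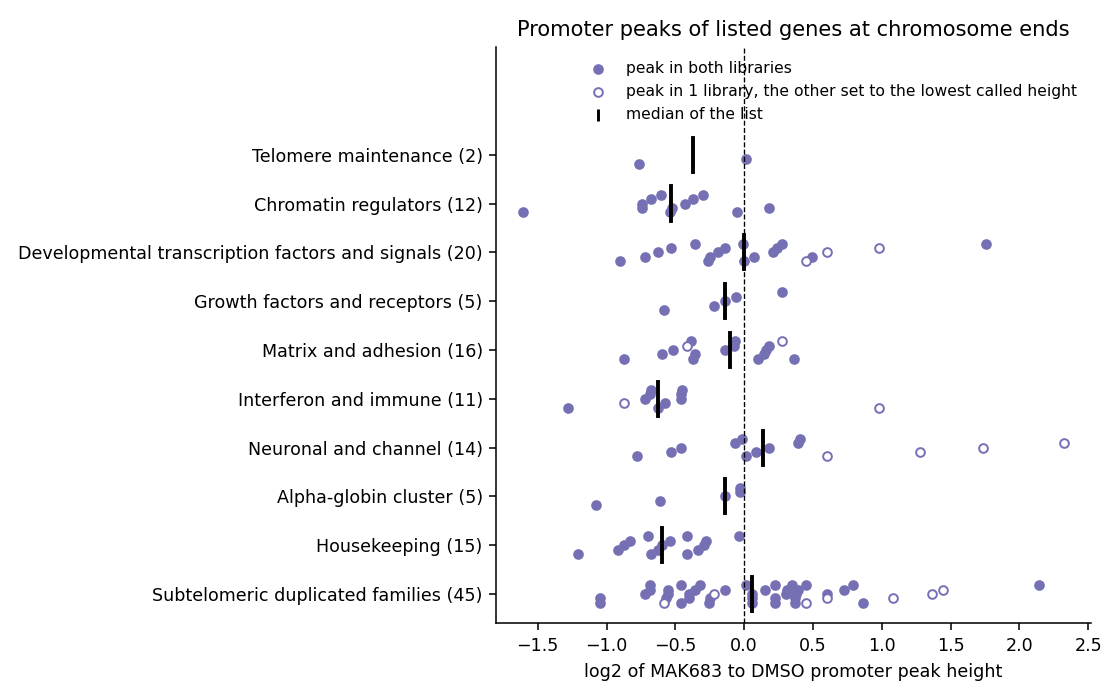
Log2 ratio of MAK683 to DMSO promoter peak height (x axis) of each listed gene with a promoter peak, by list (y axis, number of genes in brackets), with open circles for genes with a peak in 1 library and black bars for list medians. The 15 housekeeping genes all lie below 0, while the neuronal and channel genes reach 2.32.

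The letters under the peaks at chromosome ends differed from those elsewhere along with their base composition. The 200 bases around the summit had a median GC content of 61.0% in DMSO and 59.0% in MAK683 at the ends, against 51.5% and 50.5% in the rest of the same chromosomes. The AP-1 letters were found in 3.98% of DMSO and 4.02% of MAK683 peaks at the ends, against 5.49% and 5.82% of all peaks on the main chromosomes. The ETS letters were found in 8.17% and 7.10%, against 5.96% and 4.97%, and the CTCF core in 9.44% and 8.55%, against 7.37% and 6.16%.

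Within the ends, the peaks found in MAK683 alone at ends with few genes held the CTCF core in 3.89% of cases (3.03 to 4.99%) and the AP-1 letters in 5.01% (4.02 to 6.23%). Peaks found in DMSO alone at the same ends were close, with 3.69% and 4.92%. Over all main chromosomes the peaks found in MAK683 alone held 3.94% and 6.25%, so the low CTCF share was not particular to these ends. By GC content of the peak, the ratio at the ends with few genes was 2.97 at 40 to 50% GC, 3.33 at 50 to 60% and 1.99 at 60% or more. The ends with many genes had 0.790, 0.817 and 0.926 over the same classes.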

How the data were processed

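ATAC-seq was measured in 1 DMSO and 1 MAK683 library of G401 cells. Per the study's methods, the authors trimmed reads with Trim-galore and aligned with Bowtie2 to hg19. Peak calling, per the file headers, was done library by library in MACS 2.1.1.20160309 (the processing notes name MACS2 2.1.0 and 2.2.7.1), with tags shifted by -100 bp and extended to 200 bp, 1 tag kept per position, a q-value cutoff of 0.05, no control and no local background. Regional differences in coverage, copy number included, were therefore not corrected. Tags after filtering numbered 16598348 (DMSO) and 18265284 (MAK683).

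The deposited pileup signal is the number of tags over the summit and was scaled to 1000000 filtered tags (RPM). The deposited fold enrichment ratio and the deposited −log10 q-value served only in alternatives, and the deposited −log10 p-value was not used. Peaks that overlapped by at least 1 bp were called shared and merged into regions. The nearest TSS came from GENCODE 44 lifted to GRCh37, with 1 TSS per gene. Shares have Wilson intervals, ratios of peak numbers and heights exact Clopper-Pearson intervals, medians order-statistic intervals, and single log2 ratios a normal approximation to Poisson error. Intervals take peaks as independent, which neighbours are not, and reads as molecules, which was not checked by molecular identifiers. Sequences were read from the GRCh37 assembly. Some items are not reported here.

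The chromosome ends, gene lists and splits were chosen with earlier results of these data known. For each gene list at most its 3 tallest promoters, 2 highest and 2 lowest log2 ratios could be named. Regions named were the 5 tallest, the 5 most raised and 5 most lowered, the 3 tallest of each library alone, and the 3 outermost per arm. MYT1L, SMOC2 and ATP6V0C, which were also listed, start outside the 2 Mb. The code was tested on simulated data. Python 3.11.15, numpy 2.4.6, pandas 2.3.3, scipy 1.17.1 and pysam 0.24.0 were used. Alternatives were stricter peak filters, other windows, other overlap rules (for promoters, chosen after seeing the data), other height scales and ends left out.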

Additional observations from a re-analysis of the deposited data

Results flagged for a closer look

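Chromosome ends outside the set described above were counted in the same way. The short-arm end of chromosome 18, with 10 coding genes, had 56 DMSO and 82 MAK683 peaks, a ratio of 1.46 with a lower bound of 1.03, and its long-arm end, with 12 coding genes, had 92 and 204, a ratio of 2.22 (1.73 to 2.87). These were the ends of chromosomes 13, 17, 18, 19, 22, X and Y whose interval lay wholly above 1, and what flagged them is that signal in data the report does not use. The gene-rich ends 17p, with 33 coding genes, and 19p, with 70, had ratios of 0.567 and 0.796. Not all of these ends followed gene content. Yq, with 4 coding genes, went from 50 to 28 peaks, a ratio of 0.560 (0.339 to 0.907), and Xp, with 12, had a ratio of 1.02 (0.795 to 1.32). No explanation was tested.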

How the results depend on the processing

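No paired analysis was possible because each group was 1 library. With 1 library per group, variation between cultures was not measured. Of 108 recomputed values, 44 stayed within the counting interval of the reported value, 52 moved beyond it and 12 changed direction. Direction changes were those of ratios of peak numbers, under filters that remove low peaks. With a −log10 q-value of at least 5, the ratio was 0.905 at all ends, 0.938 on short arms, 0.879 on long arms, 1.85, 0.886 and 0.690 at the ends with few, a middle number and many coding genes, the member shares of a library's peaks 4.49% (MAK683), shared peaks 56.7% (DMSO) and 65.5% (MAK683), TSS-proximal peaks 47.4% and 45.4%, and the median log2 height ratio -0.33. At 1 RPM or more the ratios were 0.655, 0.669 and 0.643, then 0.942, 0.693 and 0.563, member shares 4.52% and 4.13%, shared peaks 54.6% and 85.1%, TSS-proximal peaks 63.2% and 69.6%, and the median -0.40. With equal peak numbers in the libraries the ratios were 0.884, 0.945 and 0.838, shared peaks 51.1% and 60.3%, and TSS-proximal MAK683 peaks 40.7%. These filters drop low peaks by construction. Equal peak numbers also fix the ratio over all main chromosomes at 1, so that those ratios at the ends only compare member shares.

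Windows of 1 Mb gave member shares of 2.33% and 2.01% and TSS-proximal shares of 45.3% and 40.5%. Windows of 5 Mb gave 10.4% and 9.24%, 36.7% and 32.4%, a long-arm ratio of 1.27 and 49.8% of MAK683 peaks shared. Without the end with most peaks the member shares were 4.55% and 4.05%, and 51.2% of MAK683 peaks were shared. Without 2p and 11q, a choice made after seeing the data, the ratios were 1.11, 1.15 and 1.08, and 1.98 at the ends with few coding genes, the MAK683 member share 3.77%, its shared peaks 57.9% and its TSS-proximal peaks 40.1%. A TSS within 1 kb gave 23.8% and 21.3% proximal peaks, and coding TSSs alone 27.8% and 22.3%. An overlap of at least 50% of each peak gave 31.7% and 25.9% shared peaks and a median of -0.33, and summits at most 150 bp apart gave 31.7% and 25.9%. Fold enrichment gave medians of -0.23 for regions and -0.38 for promoters, and tags not scaled for depth gave -0.17 and -0.32.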

Other observations

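The promoters at chromosome ends with the largest changes outside the gene lists were picked after their values were seen. NLRP3 on 1q had no DMSO peak and 22 MAK683 tags, and OPCML on 11q had none and 24. SPATA19 on 11q, a gene of sperm, had none and 16, and the olfactory receptor gene OR2B11 on 1q had none and 17. On the other side, the syndecan-binding gene SDCBP2 on 20p had 32 DMSO tags and no MAK683 peak within 3 kb of its TSS. The tallest DMSO peak at the ends without an overlapping MAK683 peak held 20 tags, so the SDCBP2 site was not lost outright. The coactivator gene EDF1 on 9q had 20 and 7, and TALDO1 on 11p, an enzyme of the pentose phosphate pathway, had 42 and 18.

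By GC content of the window, the ends and the interior windows were close in some classes and apart in another. At 40 to 45% GC the ratio was 1.63 over 7 ends and 1.53 over interior windows, and at 50% or more it was 0.933 over 14 ends and 0.890 over 16 interior windows. At 45 to 50% the 9 ends, 2p, 11q and 7q among them, went from 1053 to 2145 peaks, a ratio of 2.04 (1.89 to 2.20), and 135 interior windows had a ratio of 1.06 (1.05 to 1.08). The ends of that class had a median of 11 coding genes and the interior windows 26.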
